A study of Caenorhabditis elegans with 4 samples.

Results

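CEH-30::GFP regions of chromosome V were those lines of the deposited list whose chromosome column reads V, which gave 1080 of the 6672 regions in all. They come from a chromatin immunoprecipitation sequencing (ChIP-seq) experiment on late embryos of Caenorhabditis elegans, in which DNA precipitated with a goat antibody against GFP was set against input DNA. The samples were 2 of precipitated DNA and 2 of input DNA, which the authors merged into a single set of calls. All 4 samples came from strain OP120, grown at 20 °C and labelled as hermaphrodite. In this strain unc119(ed3) animals carry the insertion wgIs120, a ceh-30 transgene fused to TY1, EGFP and FLAG tags beside an unc119 copy, brought in by particle bombardment. Input DNA therefore came from the same tagged animals, and no untagged sample is among the labels, so binding of CEH-30::GFP and other recovery by the antibody cannot be told apart.

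CEH-30 is a homeodomain transcription factor of the Bar family, best known for keeping the male-specific CEM sensory neurons alive. The autosomes of the worm have a gene-dense centre with little meiotic recombination between 2 arms that recombine more and are richer in repeats. Chromosome V is known for its large families of chemoreceptor genes, many of them on the arms. No genome of the release behind the list was at hand, so regions are given by position in WormBase WS180 (1-based), and the genes, exons, introns and sequences under them were not analysed here.

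For every region the caller PeakSeq gave its limits and a q-value, which is a p-value corrected for testing many places. The −log10 of the deposited q-value is called strength below, and it reflects read depth as well as enrichment. No values per replicate or read counts came with the list, so no error between replicates exists and the read depth of a region is unknown. No test was made between stretches of the chromosome. The 95% intervals below are exact intervals of counting error only, and they treat neighbouring regions as independent, which they are not. Every region was below a q-value of 0.01, so an empty stretch shows only that nothing there passed the limit.

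The regions of V were split by midpoint into a left arm below 5.897 Mb, a right arm above 16.55 Mb and the centre between these borders. The left arm held 280 regions, the right arm 250 and the centre 550. On the left, the regions next to the border were at 5850404 to 5850831 and at 5917882 to 5917891, and on the right at 16538145 to 16538305 and at 16592159 to 16592397. The first region of V started at 8294 and the last ended at 20857101, which was taken as the length of the span. The borders were not derived from the list, and the release they refer to is not given in the sources used here.

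Both arms together had nearly the same density as the centre. Both arms held 51.9 regions per Mb (95% interval 47.6 to 56.6) and the centre held 51.6 per Mb (47.4 to 56.1). The arms thus held 49.1% of the regions (95% exact binomial interval 46.1% to 52.1%) on 48.9% of the span. Without 1 crowded stretch of the right arm, described below, their share was 44.9%. The left arm had 47.5 per Mb (42.1 to 53.4) and the right arm 58.0 per Mb (51.1 to 65.7), an order that turned without that stretch. Left arm minus centre was −4.15 per Mb and right arm minus centre was 6.42 per Mb. These differences are smaller than their 95% counting margins of 7.04 and 8.39 per Mb, but the right arm's depended on the stretch compared. With both borders moved 500 kb outward it was 13.3 per Mb (margin 8.98), and without the crowded stretch it was −8.92 per Mb (margin 7.75). That stretch was chosen around the fullest 50 kb window of V and taken out of the right arm only. Its removal therefore had to lower the right arm's density. The margin does not count this choice, so the value describes how much rested on the stretch and no more.

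Bins of 1 Mb varied far more within a zone than the zones did among themselves. The 5 complete bins within the left arm held from 32 to 60 regions with a median of 48. The 3 complete bins of the right arm held 42, 57 and 90. The 10 bins of the centre held from 37 to 62 with a median of 57, so the bins of all zones overlapped. The fullest bin of V, from 17 to 18 Mb with 90 regions, came directly after the emptiest, from 16 to 17 Mb with 23 regions, which crosses the right border. The second fullest bin, with 62 regions, ran from 11 to 12 Mb in the centre.

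**Figure D1:**
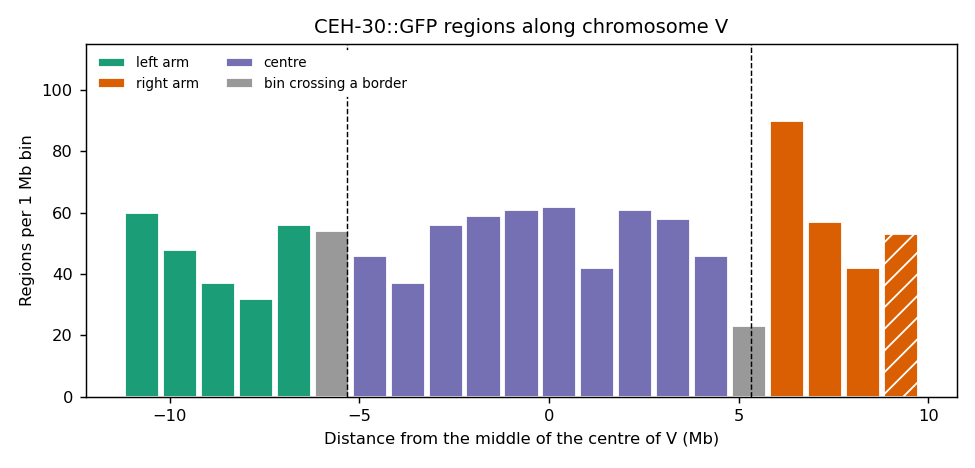
Number of CEH-30::GFP regions in each 1 Mb bin of chromosome V against the distance of the bin from the middle of the centre; dashed lines are the zone borders and the hatched bin is incomplete. The bin with 90 regions in the right arm stands beside the bin with 23, while bins of the centre lie between 37 and 62.

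Strong regions did not follow the number of regions. Of the best 10% of q-values in the whole list (668 regions, strength of 9.32 or more), V held 84, of which 18 were in the left arm, 19 in the right arm and 47 in the centre. That is 6.43% of the left arm's regions (95% exact binomial interval 3.85% to 9.97%), 7.60% of the right arm's (4.64% to 11.6%) and 8.55% of the centre's (6.35% to 11.2%), and the intervals overlap. On all of V the share was 7.78% (6.25% to 9.54%), against 10.4% (9.65% to 11.3%) on the other 5 chromosomes together. IV with 7.26% and X with 7.58% had shares close to that of V. The bin from 10 to 11 Mb held 11 of the 84 and its neighbour from 9 to 10 Mb held 9. The bin from 11 to 12 Mb, with 62 regions, held 1. The bin from 4 to 5 Mb, with 56 regions, held 0, and its strongest region reached 8.99. In the right arm, the bin from 19 to 20 Mb had only 42 regions and held 9. Another region of the best 10% lay within 50 kb of 6 of the 18 in the left arm, 13 of the 19 in the right arm and 15 of the 47 in the centre.

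The left arm had a median of 3.19 (quartiles 2.39 and 5.27), the right arm 3.24 (2.51 and 4.72) and the centre 3.28 (2.44 and 5.44). Median widths were 149.5 bp in the left arm (quartiles 63 and 246 bp), 198 bp in the right arm (75.5 and 309 bp) and 177 bp in the centre (67 and 311 bp). The left arm thus had the narrowest regions, with a median difference, left arm minus centre, of −27.5 bp and a 95% margin of 22.7 bp. It no longer exceeded its margin with both borders moved 500 kb inward (−20 bp, margin 22.7 bp), with regions within 500 bp joined (−24 bp, margin 24.8 bp) or in the best 10% of q-values (−13 bp, margin 238 bp). It was larger, and beyond its margin, in the better 50% of q-values (−58.5 bp, margin 34.9 bp), below a q-value of 0.001 (−51 bp, margin 29 bp) and with 3 equal parts (−35.5 bp, margin 21.6 bp). Its sign held in all 12 alternatives, of which the list without the crowded stretch of the right arm could not change it. A narrower left part was not particular to V, as given with the other chromosomes below. The right arm was 21 bp above the centre, and that difference is smaller than its 95% margin of 26.2 bp. Among regions with a q-value below 0.001, right arm minus centre in median width was −28 bp, within its margin of 34.6 bp. In the better 50% of q-values that width difference was −45 bp (margin 37.0 bp). At the limit of 0.001, left arm minus centre in median strength was 0.018 (margin 0.64), in place of −0.09 (margin 0.33). Stricter lists gave other strength differences, with 4.39 (margin 2.57) for left arm minus centre in the best 10% and −0.72 (margin 0.58) for right arm minus centre in the better 50% of q-values. Regions under 20 bp made up 13.2% of the left arm, 13.2% of the right arm and 14.4% of the centre.

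The left arm held the strongest region of V, with weak regions around it. The region at 1803796 to 1806743, 2948 bp wide with a q-value of 6.09e-186, ranked 3 in the whole list. Joined over gaps of up to 2 kb, it formed a stretch of 6.69 kb with 4 short regions, of 9, 213, 51 and 124 bp, and none of those exceeded a strength of 4.57. The next strongest regions of the left arm were far weaker. They were a 490 bp region at 3193071 to 3193560 with a q-value of 3.64e-25, a 494 bp region at 1868475 to 1868968 with 8.63e-24 and an 800 bp region at 2066753 to 2067552 with 1.58e-21. The fifth, at 5049368 to 5049940, had a q-value of 4.21e-21. Among the widest of the arm were also a 1761 bp region at 5283991 to 5285751, of strength 9.09, and a 1675 bp region at 264907 to 266581, of strength 16.6.

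The strongest region of the right arm was weaker than that of the left arm, and 3 of the arm's 5 strongest regions lay in the bin from 19 to 20 Mb. The region at 19549989 to 19550836, 848 bp wide, had a q-value of 1.79e-51, and the one at 19520887 to 19523032, 2146 bp wide and the widest of the arm, had 4.19e-50. A 960 bp region at 18353732 to 18354691 followed with 9.59e-36. The remaining 2 of the 5 strongest were a 365 bp region at 19642977 to 19643341 with 1.88e-24 and a 907 bp region at 18723056 to 18723962 with 1.51e-22. Close to the last of these lay the second widest region of the arm, 1226 bp at 18719306 to 18720531, of strength 20.9.

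In the centre, 4 of the 5 strongest regions lay in 2 places about 1 Mb apart. A stretch of 6.98 kb, from 9085658 to 9092637, held 3 regions and all 3 were among the 5 strongest of the centre. The middle one, at 9088611 to 9089267 and 657 bp wide, had a q-value of 6.39e-114. Its left neighbour, 1309 bp wide, had 9.61e-34 and its right neighbour, 1743 bp wide, had 2.46e-42. This triplet borders a gap of 114 kb without a region on its left. The fourth of the centre's strongest regions lay elsewhere, at 14685413 to 14689552, with a width of 4140 bp and a q-value of 1.51e-34.

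The other place held the widest regions of V. Between 10053268 and 10071197, 2 regions covered 98.4% of 17.9 kb. The wider one, of 14112 bp, ranked 21 on V by q-value (5.78e-20) and the other, of 3536 bp, had a q-value of 5.25e-16. After 2929 bp without a call, 5 more regions followed from 10074127 to 10091990. One of them, 5813 bp wide, had a strength of 92.1 and its right neighbour, 5259 bp wide, had 11.9. The 3 to its left, of 772, 2947 and 89 bp, had strengths of 2.15, 2.89 and 2.00. The region of 2947 bp was thus weaker than the median region of V (3.26).

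These 7 regions held 32.5 kb, which was 21.4% of all bases covered in the centre and 12.2% of those on V. Covered length was 9.53 kb per Mb in the left arm, 13.7 in the right arm and 14.2 in the centre. Without both stretches the centre had 11.2 kb per Mb. Without its own crowded stretch, described below, the right arm had 9.54 kb per Mb. Each removal took out a place picked for being full, so each had to lower its zone. Regions over 1 kb numbered 3 in the left arm, 2 in the right arm and 11 in the centre, where they held 28.1% of the covered bases.

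**Figure D2:**
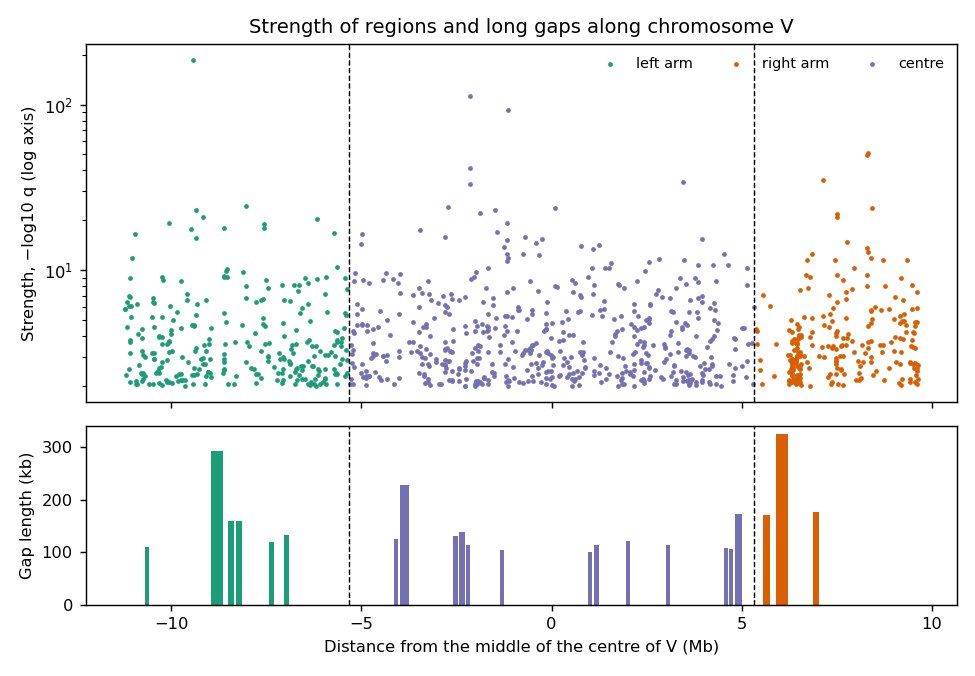
Top, strength (−log10 of the q-value, log axis) of each of the 1080 regions of V against distance from the middle of the centre; bottom, the position and length in kb of each of the 22 gaps over 100 kb, with zones in colour and dashed borders. The strongest region of 185 stands alone in the left arm, and the longest gap of 324 kb lies in the right arm beside a dense column of regions with strengths below 8.

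The high density of the right arm rested on 1 stretch of weak regions. A run of 7 neighbouring 50 kb windows from 17.45 to 17.80 Mb, each with at least 3 regions, held 81 regions, or 32.4% of the right arm's regions on 8.13% of its span. From left to right the windows held 6, 16, 8, 3, 27, 12 and 9 regions. Without this run the right arm had 42.7 regions per Mb, below both the left arm (47.5) and the centre (51.6). The stretch was delimited around the fullest window after its values were seen, and the crowded windows of the other zones were kept.

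Wide regions of this crowded stretch were weak for their width. All 81 regions of the stretch, of any width, had a median strength of 2.71, against 3.67 in the rest of the right arm, and the highest was 7.56. Only 2 of the 81 exceeded 5, and 0 belonged to the best 10% of q-values, so that all 19 such regions of the arm lay outside the stretch. The median width was 213 bp within the stretch and 187 bp in the rest of the arm. Of regions wider than 291 bp, the upper quartile of the whole list, the stretch held 29, with a median strength of 2.92. In the rest of the right arm 44 such regions had a median of 6.27, which is near the left arm's 7.69 and the centre's 7.02.

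The link between width and strength was accordingly loosest in the right arm. Spearman's rho was 0.55 in the left arm, 0.35 in the right arm and 0.64 in the centre. Within the stretch it was 0.27 and in the rest of the right arm 0.54. These coefficients are descriptions across regions, with no p, because the same caller made both values from the same reads. On all of V rho was 0.56.

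**Figure D3:**
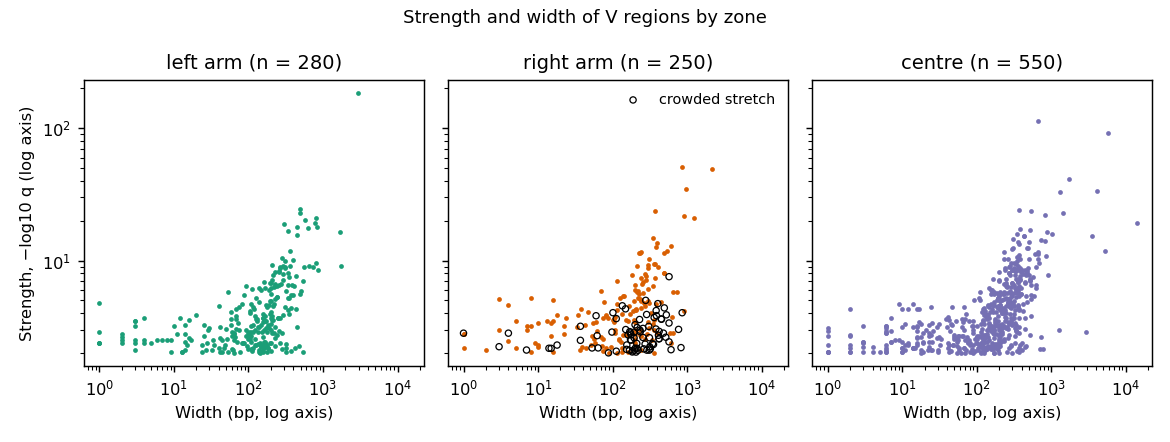
Strength against width (both log axes) for the 280 regions of the left arm, the 250 of the right arm and the 550 of the centre, 1 point per region. The open circles of the crowded stretch have strengths from 2 to 8 at widths from 1 to 857 bp, and the 29 of them wider than 291 bp have a median of 2.92, against 6.27 for such regions in the rest of the arm.

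Within the stretch, regions lay in tight groups. The gaps between neighbours ran from 203 to 45958 bp with a median of 1662 bp. The most crowded window, from 17.65 to 17.70 Mb, held 27 regions with a median width of 288 bp, and together they covered 7.98 kb. Joining regions within 500 bp left 68 of the 81, and joining within 2000 bp left 34. Whether close regions are separate sites or split blocks was not tested, since no read counts came with the list. A crowded window of another kind lay 1 Mb further right, from 18.70 to 18.75 Mb. It held 14 regions, 3 of them in the best 10%, with a highest strength of 21.8. In the centre, the fullest window was at 8.40 to 8.45 Mb with 11 regions and a highest strength of 15.9. Crowded windows were not particular to V, since the fullest window of I also held 27 regions and that of II held 20. Windows with 10 or more regions numbered 6 on V, 13 on I, 9 on II, 8 on III, 3 on IV and 0 on X.

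**Figure D4:**
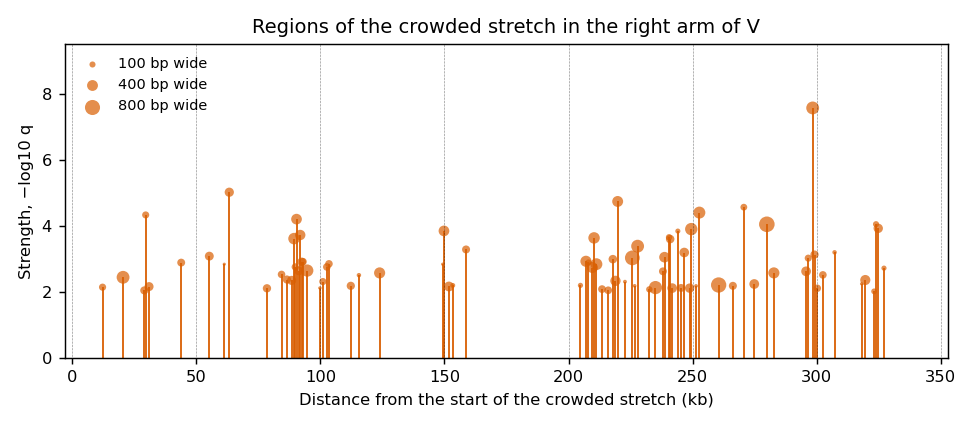
Strength of each of the 81 regions of the crowded stretch against distance from its start in kb; the size of a point stands for the region's width and dotted lines mark 50 kb windows. Regions fall in groups separated by empty intervals, and 2 of them exceed a strength of 5.

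Long stretches without a region lay in all zones of V. Gaps over 100 kb between neighbouring regions numbered 6 in the left arm, 3 in the right arm and 13 in the centre. They took up 16.5% of the left arm, 15.6% of the right arm and 15.7% of the centre, shares that lie within 1 percentage point of each other. The arms thus held 9 of the 22 (40.9%, 95% exact binomial interval 20.7% to 63.6%). The median long gap of V was 129 kb.

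The 2 longest gaps lay in the arms and the third in the centre. The longest of the right arm, from 17122351 to 17446587 (324 kb), ended just before the crowded stretch, whose first region starts at 17462173 after 1 region between them. In the left arm, gaps at 2278881 to 2570668 (292 kb), 2718204 to 2877526 (159 kb) and 2935961 to 3094424 (158 kb) came one after another, with no other gap over 100 kb between them. The right arm's next gaps were at 18087079 to 18263754 (177 kb) and at 16795255 to 16965722 (170 kb). In the centre the longest were at 7237438 to 7465601 (228 kb) and, near the right border, at 16056600 to 16228734 (172 kb). Between 8631609 and 9085657, 3 centre gaps of 131, 139 and 114 kb came close together and ended at the strong triplet.

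Regions on the edges of long gaps had strengths close to those of V as a whole. Their median strength was 3.09, with a range of 2.04 to 33.0, against a median of 3.26 over all regions of V. Another midpoint lay within 5 kb of 57.5% of the regions of the left arm, 65.6% of those of the right arm and 52.9% of those of the centre. Without the 4 right-arm windows among the 5 most crowded of V, the share in the right arm was 54.1%. On V, 16 regions stood alone, with more than 50 kb free of regions on both sides. Of these, 5 lay in the left arm, 5 in the right arm and 6 in the centre. Those of the left arm were weak, with strengths from 2.04 to 3.22. In the centre 2 of them were stronger. A 306 bp region at 15766210 to 15766515 had a strength of 12.5. A 279 bp region at 12191007 to 12191285 had 9.14, just below the 9.32 that marks the best 10% of q-values. These lone regions were described after their values were seen.

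V had fewer regions for its length, and more windows without any, than each of the other chromosomes. V had 51.8 regions per Mb (95% interval 48.7 to 55.0), against 70.6 per Mb on the other 5 chromosomes together (68.8 to 72.5). The nearest was IV with 59.2 per Mb (55.6 to 62.9). Of the 50 kb windows of V, 17.7% held no region, against 4.35% to 9.86% on each of the others. Gaps over 50 kb took up 44.4% of V and 23.9% of the others. Lone regions as defined above made up 1.48% of V's regions and 0.358% of those elsewhere. Fewer regions by themselves leave more and longer gaps, so these counts and the density are not independent observations.

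The regions of V had nearly the same median width as those elsewhere and a slightly lower median strength. The median width was 172 bp on V and 174 bp on the others. The median strength was 3.26 on V and 3.51 on the others, a difference of −0.25 with a 95% margin of 0.15. Without the crowded stretch of V the difference was −0.16 (margin 0.16), and at a q-value limit of 0.001 it was −0.15 (margin 0.25), neither beyond its margin. X had a median of 3.09 and IV of 3.24, both below that of V. Within the best 10% of q-values, V minus the others turned to 1.20 in median strength, which is within its margin of 1.72. Strengths over 3 were reached by 56.9% of the regions of V and 62.0% elsewhere, over 5 by 26.5% and 30.1%, and over 10 by 6.85% and 8.66%. Strengths over 20 were reached by 20 regions of V, or 1.85%, and by 88 elsewhere, or 1.57%. For their length that was 0.96 per Mb on V and 1.11 per Mb elsewhere. Over 50 the shares were 0.37% (4 regions) and 0.27% (15 regions).

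**Figure D5:**
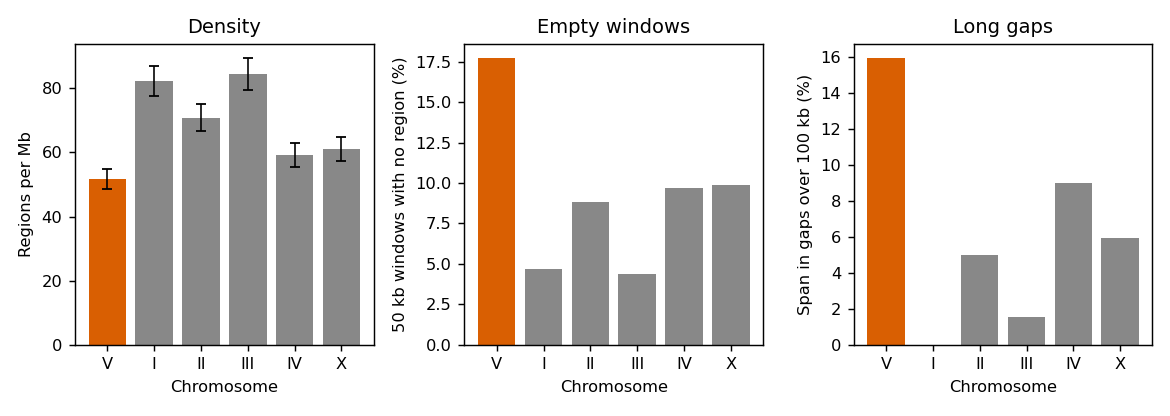
Chromosome V (orange) beside the other chromosomes (grey): regions per Mb with 95% exact Poisson intervals of counting error, the percentage of 50 kb windows with no region, and the percentage of the span in gaps over 100 kb. V has the lowest density with 51.8 per Mb, the highest share of empty windows with 17.7% and the highest share of its span in long gaps with 15.9%.

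Densities of the left, right and central parts, and median widths of the left and central parts, were also set side by side over the chromosomes. When borders at the same relative positions (28.3% and 79.3% of the span) were laid on every chromosome, the right part of V was 1.12 times as dense as its centre, while on I, II, III and IV it was between 0.86 and 0.96 times as dense and on X 1.01 times. Without the crowded stretch the right arm of V was less dense than its centre, as given above. The left part was 0.92 times as dense as the centre on V, 0.55 times on II and 1.16 times on IV. In median width the left part was narrower than the centre on every chromosome. The left and centre medians were 149.5 and 177 bp on V, 172 and 193 bp on I and 127 and 163.5 bp on II. They were 140 and 172.5 bp on III, 159 and 186 bp on IV and 185.5 and 201 bp on X. Such relative borders are not the actual arm borders of the other chromosomes, and no test was made.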

How the data were processed

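The data were 1 list of regions from 4 ChIP-seq samples (2 of precipitated DNA, 2 of input DNA). Per the file headers, coordinates are of WormBase WS180 and regions were called with PeakSeq. The q-value (an adjusted p-value) was deposited by the authors in 2 fields, which differed in 0 regions. Per the labels' protocols, worms were crosslinked with 2% formaldehyde and quenched with 100 mM Tris. How reads were aligned and filtered, which PeakSeq version ran and how replicates were merged is not given in the sources used here.

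Widths, midpoints, −log10 q-values, uncovered gaps, 1 Mb bins and 50 kb windows were computed from the list with Python 3.11.15, numpy 2.4.6, pandas 2.3.3 and scipy 1.17.1, and plotted with matplotlib 3.10.9. Intervals are exact Poisson for densities and exact binomial for shares. Margins of differences combine counting errors (densities) or order-statistic intervals of the medians. The functions were tested on simulated data with known densities, strengths and gaps. Nothing was filtered in the values reported, except where a stricter list, a joining or a removal is named with the value. Members, borders and lists were chosen with earlier results of these data known. Named regions are, per zone, the 5 smallest q-values, the 3 widest and the longest gaps, with the fullest windows and bins, the first and last regions and those at the borders. Others are said to be chosen after seeing values.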

Additional observations from a re-analysis of the deposited data

How the results depend on the processing

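The unknown read depth limits what can be said of weak or missing regions. No paired analysis was possible because each region has a single merged value, which also left no replicate to omit. Gaps were not recounted where stretches were removed. The lists without the crowded stretch and without the 2 most covered blocks were added after seeing the data. The causes of the shifts below were not tested.

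Right arm minus centre in density changed sign in 6 of 13 alternatives: −0.00058 per Mb in the best 10% of q-values, −3.14 with regions within 2000 bp joined, −6.76 without the 5 most crowded windows, −0.86 with 3 equal parts, −0.52 kb per Mb in covered length and −8.92 without the crowded stretch. Left arm minus centre kept its sign in all 13, with −4.71 kb per Mb in covered length. The list without the crowded stretch of the right arm could not change left arm minus centre. The share in the arms moved to 44.0% in the best 10%, 45.7% and 53.0% with borders 500 kb outward and inward, 65.1% with 3 equal parts, 43.2% of covered length and 44.9% without the crowded stretch. Other borders also change the arms' share of the span, which was 48.9% with the main borders. The shares at moved borders and with 3 equal parts therefore do not by themselves show more or fewer regions for the arms' length.

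Left arm minus centre in median strength turned to 4.39 in the best 10% and 0.018 at a q-value limit of 0.001. Right arm minus centre in median strength was −0.72 in the better 50%, −0.84 in the best 10% and −0.48 at the limit of 0.001; it turned to 0.071 with regions within 500 bp joined, 0.24 without the crowded windows, 0.0060 with borders inward, 0.021 with 3 equal parts and 0.39 without the crowded stretch. In median width, left arm minus centre was −58.5 bp in the better 50% and −51 bp at the limit of 0.001. Right arm minus centre in width turned to −45 bp in the better 50%, −127 bp in the best 10%, −28 bp at the limit of 0.001, −5 bp with regions within 2000 bp joined, −12 bp without the crowded windows and −4 bp with 3 equal parts. Of these width differences of the right arm only −45 bp exceeded its margin (37.0 bp).

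V minus the other chromosomes in density kept its sign in all 11 alternatives, with −12.0 per Mb in the better 50%, −3.35 in the best 10%, −14.4 at the limit of 0.001, −14.3 with regions within 2000 bp joined and −2.52 kb per Mb in covered length. Removals of full places from V alone could only lower V, so their sign was fixed in advance. Shorter lists have lower densities everywhere, so the differences are not on the same scale. In the best 10% V had 4.03 per Mb against 7.37 elsewhere, and in the full list 51.8 against 70.6. In median strength it was −0.094 (margin 0.30) in the better 50% and turned to 1.20 (margin 1.72) in the best 10%. In median width it turned to 1.5 bp in the better 50%, 89 bp in the best 10%, 1 bp at the limit of 0.001, 5 bp without regions under 20 bp and 4 bp against the other 4 autosomes. Long gaps numbered 56, 45 and 45 in the better 50%, the best 10% and at the limit of 0.001, 109 over 50 kb and 8 over 150 kb, of which the arms held 75%.

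The share of V regions with a neighbour within 5 kb was 57.0%. It was 37.8% in the better 50%, 21.4% in the best 10%, 42.8% at the limit of 0.001, 52.8% and 31.2% with regions within 500 and 2000 bp joined, 53.9% without regions under 20 bp and 54.0% without the crowded windows; 33.9% had one within 2 kb and 88.7% within 20 kb. Spearman's rho of strength with width was 0.62 in the better 50% and at the limit of 0.001, and 0.60 without the crowded stretch.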
